A study of Xenopus tropicalis with 52 samples.

Results

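Retinoic acid is made from vitamin A and binds receptors in the nucleus. Transcripts of 10 genes for its metabolism and its receptors were followed through the first hours of *Xenopus tropicalis* development. The genes were chosen by name: the dehydrogenases *rdh10*, *dhrs3* and *aldh1a2*, the degrading enzymes *cyp26a1* and *cyp26c1*, the retinoic acid receptors *rara*, *rarb* and *rarg*, and the retinoid X receptors *rxra* and *rxrb*. All 10 names were found once in each count table, out of 21750 gene rows (Series 1 with Series 2) and 20193 gene rows (Series 3).

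RNA-seq libraries of whole embryos were made every 30 min, with no treatment and no mutant. Series 1 ran from 0 to 3.0 hours post fertilisation (hpf) with 7 polyA+ libraries. Series 2 had 17, the first taken at 2.5 hpf and the last at 9.5 hpf. Series 3 held 19 polyA+ libraries from 0 to 9.0 hpf, beside 9 that were depleted of ribosomal RNA with Ribo-Zero, at whole hours up to 8.0 hpf. A different female gave the eggs of each series, and each library was a pool of embryos. A second library of the same time point exists at 4.5 and 6.5 hpf of Series 2 only. Series 3 also differed in frog colony, pool size, library kit, sequencer and rate of development, so the sources of a difference between series cannot be told apart. The mid-blastula transition (MBT), when the embryo begins broad transcription of its own genome, falls near 5.0 hpf in Series 2 and near 6.0 hpf in Series 3.

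Retinol is oxidised to retinaldehyde by *rdh10*, a step that *dhrs3* reverses, and retinaldehyde is oxidised to retinoic acid by *aldh1a2*. The CYP26 enzymes hydroxylate retinoic acid and so remove it. Retinoic acid binds the receptors *rara*, *rarb* and *rarg*, which act on DNA as pairs with a retinoid X receptor. In vertebrate embryos the balance of synthesis and removal sets where retinoic acid acts along the head-to-tail axis, including at gastrulation.

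Library totals ran from 19925593 to 24659133 counts (Series 1), 22791007 to 33907947 (Series 2), 4539916 to 17998536 (Series 3 polyA+) and 5326857 to 13562259 (Ribo-Zero). Ribosomal rows took at most 6.67% of a polyA+ library and 4.31 to 35.0% of a Ribo-Zero library. Levels are given below as normalised reads, the count scaled to 25000000 counts per library without ribosomal rows. A count of 0 allows up to 3 counts, which is 2.22 to 4.03 normalised reads in Series 1 and 2 and 4.17 to 19.5 in Series 3, and this covers counting error only. The summed level of the ectoderm markers *sox2* and *grhl3* was 10.6 normalised reads in the first library of Series 2 and 22305 in the last, so germ layer transcripts rose in the same libraries as the members, and their part in the results was not tested. In a whole-embryo pool, more cells of a type and more RNA per cell cannot be told apart. Markers of tissues of the mother summed to at most 98.5 normalised reads in any library.

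**Figure D1:**
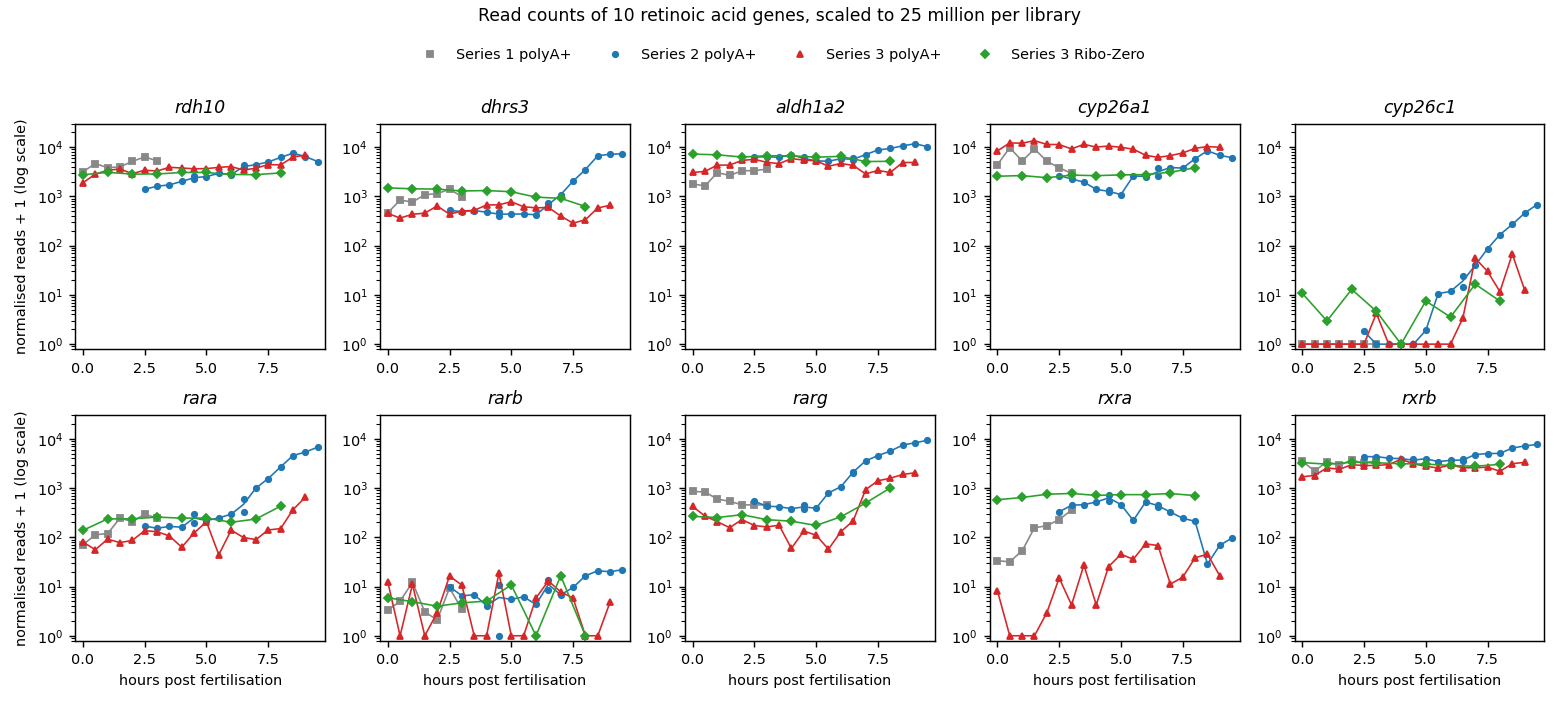
Normalised reads plus 1 (log scale) of the 10 genes against hours post fertilisation. Each point is 1 library, lines join the time points (replicate libraries averaged), and colours mark the series and library type. After the MBT *dhrs3*, *cyp26c1*, *rara* and *rarg* climb in Series 2, where *rarg* reaches 9317 normalised reads, and *rxra* lies far lower in Series 3 polyA+ than in Ribo-Zero.

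Within Series 2 the 10 genes moved most after the MBT. In Series 3 polyA+ that did not hold for every member, among them *aldh1a2* and *rxrb*. In Series 2 from 5.0 to 9.5 hpf, 9 of the 10 rose and 1, *rxra*, fell, by a straight line of log2 expression on hours (edgeR quasi-likelihood test, adjusted p under 0.05). Over all 14012 genes tested in that window, 35.2% rose and 37.6% fell. The 9 include *rarb*, which passed the count filter through later, higher libraries, so its call follows in part from the filter. *cyp26c1* is also among them, with 1 count at 5.0 hpf and 13 or more in each later library. The members' count was not tested against the share of all genes. The median slope of the 10 was 0.65 log2 per hour, and that of all genes was -0.01. The slopes of *cyp26c1* and *rarb* both lie above 0.65, so including them raised that median. Time points stand in for replicates in these fits, so the p-values measure scatter around the line within the clutch of a single female. With library totals in place of TMM the median of all genes moved to -0.12 per hour and the split to 25.5% rising and 45.7% falling, and the count of members called stayed at 10. It was also 10 with each of the 11 libraries left out in turn.

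**Figure D2:**
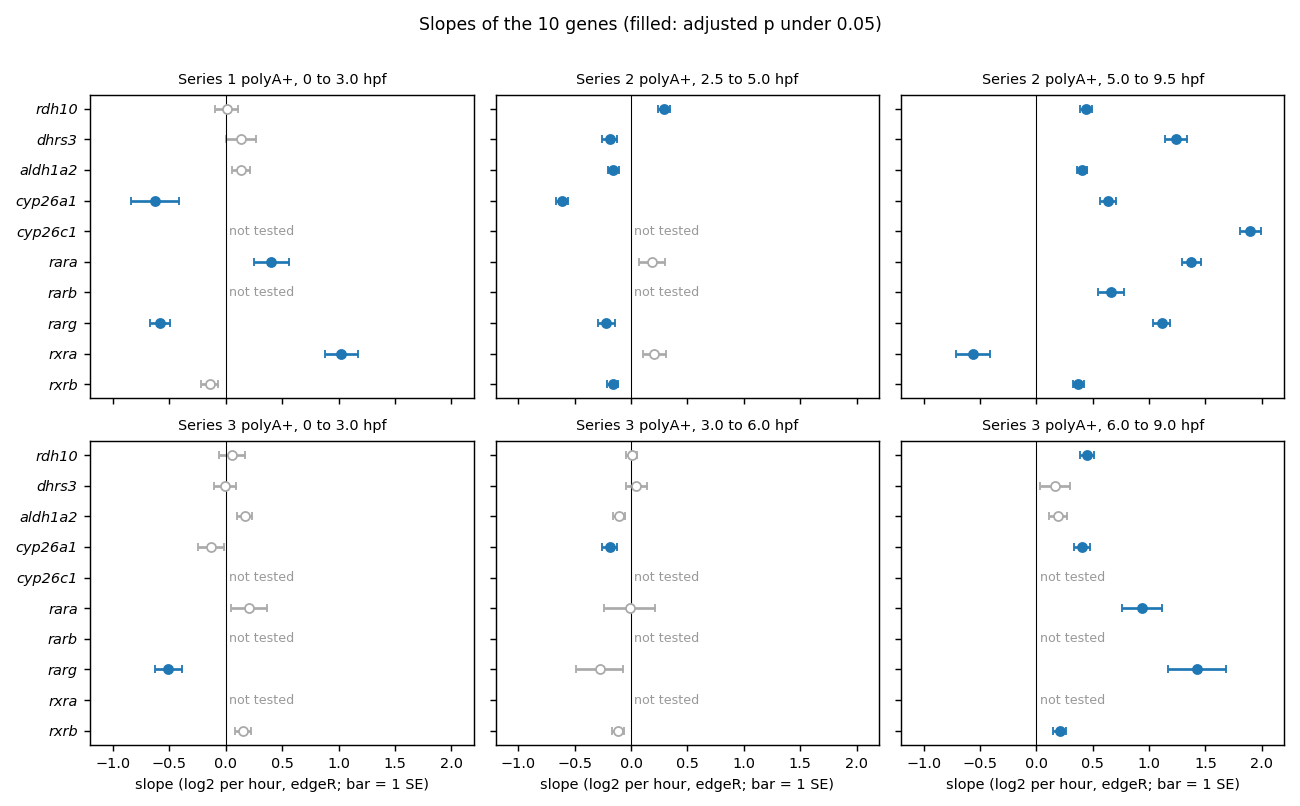
Slopes of the 10 genes in log2 per hour for 6 windows of polyA+ libraries (points, with bars of 1 SE). Filled points passed an adjusted p of 0.05 in edgeR, and genes below the count filter are marked as not tested. In Series 2 after 5.0 hpf 9 points lie to the right of 0 and *rxra* lies to the left.

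Among the enzymes of synthesis, *rdh10* (Xetrov72034618) was called as rising in both windows of Series 2, though it was lower in the last 2 libraries than at 8.5 hpf. Its level was 1398 normalised reads at 2.5 hpf, 2529 at 5.0 hpf, 7553 at 8.5 hpf, the highest point, and 5106 at 9.5 hpf. The replicate libraries held 2224 and 2571 at 4.5 hpf and 3806 and 4257 at 6.5 hpf, so the pairs differed by 1.16-fold and 1.12-fold. Its slope was 0.29 (SE 0.05, adjusted p = 0.00127) before 5.0 hpf and 0.44 (SE 0.05, adjusted p = 9.44e-06) after. In Series 3 *rdh10* stood between 3275 and 4040 normalised reads from 3.0 to 6.0 hpf and reached 6875 at 9.0 hpf, with a slope after 6.0 hpf of 0.45 (SE 0.06, adjusted p = 0.000431). The slope uses TMM, and in normalised reads, which do not, the change from 6.0 to 9.0 hpf was 1.70-fold. *rdh10* is the only enzyme of synthesis called as rising in the last window of both females. The slopes are per clock hour, while Series 3 developed more slowly and its window ended at an earlier stage, so their sizes are not compared.

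*dhrs3* (Xetrov72026628), whose product returns retinaldehyde to retinol, had unlike profiles in Series 2 and 3. In Series 2 it lay between 390 and 519 normalised reads in all libraries up to 6.0 hpf. It then climbed to 639 and 723 in the replicates at 6.5 hpf, 1084 at 7.0 hpf, 2039 at 7.5 hpf, 3510 at 8.0 hpf, 6686 at 8.5 hpf and 7321 at 9.5 hpf. Between 5.0 and 9.5 hpf that is 16.4-fold with 10 normalised reads added, and the slope was 1.24 (SE 0.10, adjusted p = 2.2e-07). In Series 3 the level was 585 normalised reads at 6.0 hpf, 285 at 7.5 hpf, the lowest point of the series, and 660 at 9.0 hpf, a slope of 0.16 (SE 0.13, adjusted p = 0.393). Series 3 developed at 0.8 of the pace, so that 9.0 hpf there corresponds to 7.2 hpf of Series 2, when *dhrs3* stood between 1084 and 2039 normalised reads. The 660 of Series 3 lay below both values, and the 285 at 7.5 hpf lay below the 422 of Series 2 at the matching 6.0 hpf. Series 3 holds no library of the later stages of the climb, and the difference between the females was not tested. In the Ribo-Zero libraries, which do not select for a tail, *dhrs3* stood at 1492 normalised reads at 0 hpf, 1243 at 5.0 hpf and 622 at 8.0 hpf (slope 5.0 to 8.0 hpf -0.29, SE 0.09, unadjusted p = 0.0145, adjusted p = 0.196).

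*aldh1a2* (Xetrov72005097), which makes retinoic acid itself, was present from the first library and spanned less than most members. In Series 2 its lowest level was 5172 normalised reads (5.5 hpf), its median 6300 and its highest 11718 (9.0 hpf), and the replicates differed by 1.13-fold at 4.5 hpf and 1.11-fold at 6.5 hpf. It rose after 5.0 hpf with a slope of 0.40 (SE 0.04, adjusted p = 2.13e-06), 1.95-fold by 9.5 hpf. In Series 3 the polyA+ level was 4666 normalised reads at 6.0 hpf, 2864 at 7.0 hpf and 4897 at 9.0 hpf, and the slope of 0.19 (SE 0.08, adjusted p = 0.108) did not pass. Without the Series 3 library at 6.0 hpf it passed (slope 0.30, adjusted p = 0.0416).

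Of the degrading enzymes, *cyp26a1* (Xetrov72025842) was present in the first library of every series and *cyp26c1* was not detectable or nearly so. In Series 1 the lowest level of *cyp26a1* was 2937 normalised reads (3.0 hpf), its median 5196 and its highest 9775 (0.5 hpf). It went up and down between libraries, with 4395 at 0 hpf, 5230 at 1.0 hpf and 9183 at 1.5 hpf. In Series 2 it fell without a break from 2650 at 2.5 hpf to 1089 at 5.0 hpf, the lowest point, then stood at 2606 at 5.5 hpf and 8419 at 8.5 hpf, and ended at 6121 at 9.5 hpf. The slopes were -0.61 (SE 0.05, adjusted p = 4.15e-05) up to 5.0 hpf and 0.63 (SE 0.07, adjusted p = 5.36e-06) after. The step from 5.0 to 5.5 hpf exceeded the difference between replicates, which was 1.11-fold at 4.5 hpf and 1.43-fold at 6.5 hpf. Series 3 had the same order on a smaller scale: 9203 normalised reads at 3.0 hpf, 6214 at 6.5 hpf, the lowest point, and 9969 at 9.0 hpf. Its slope was -0.19 (SE 0.06, adjusted p = 0.0359) from 3.0 to 6.0 hpf and 0.40 (SE 0.07, adjusted p = 0.00157) from 6.0 to 9.0 hpf. The slopes use TMM and the normalised reads do not, and these rose 1.46-fold from 6.0 to 9.0 hpf. The fall in Series 3 no longer passed without the library at 3.5 hpf (adjusted p = 0.118), 4.0 hpf (0.0511) or 6.0 hpf (slope -0.07, adjusted p = 0.498), nor with library totals (slope -0.14, adjusted p = 0.111).

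*cyp26c1* (Xetrov72028450), the neighbour of *cyp26a1* in the UCB_Xtro_10.0 gene table of RefSeq, had 0 counts in all 7 libraries of Series 1. In Series 2 it had 0 or 1 count in each library up to 5.0 hpf, then 13 counts at 5.5 hpf, 13 at 6.0 hpf, 16 and 24 in the replicates at 6.5 hpf, 47 at 7.0 hpf, 110 at 7.5 hpf, 171 at 8.0 hpf, 244 at 8.5 hpf, 504 at 9.0 hpf and 748 at 9.5 hpf. Its slope of 1.90 log2 per hour (SE 0.09, adjusted p = 5.06e-09) was the steepest of the 10, and ranked 280 of 14012 genes. In that window it had at least 10 counts in every library except that at 5.0 hpf. In Series 3 polyA+ it had at most 16 counts, at 7.0 hpf, and 12 of 19 libraries had none, and in Ribo-Zero it had at most 4 counts, so no slope was tested there.

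Of the retinoic acid receptors, *rara* (Xetrov72017142) and *rarg* (Xetrov72030215) rose from low levels. *rara* lay between 151 and 298 normalised reads in Series 2 up to 6.0 hpf, with replicates of 298 and 195 at 4.5 hpf. At 6.5 hpf the replicates held 607 and 323, a 1.86-fold difference and the widest between replicates of any member with over 100 normalised reads. The level then went through 996 at 7.0 hpf, 2677 at 8.0 hpf and 5362 at 9.0 hpf to 6749 at 9.5 hpf, 29.7-fold above 5.0 hpf (slope 1.37, SE 0.09, adjusted p = 3.05e-08). In Series 3 *rara* stood at 138 normalised reads at 6.0 hpf and 149 at 8.0 hpf, and in that window only the last 2 libraries were higher, at 361 and 649 (slope from 6.0 hpf 0.94, SE 0.18, adjusted p = 0.00284).

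*rarg* fell first and rose after. In Series 1 it stood at 850 normalised reads at 0 hpf and 454 at 3.0 hpf (slope -0.58, SE 0.09, adjusted p = 0.000422), a call that held with each library left out. In Series 3 polyA+ it stood at 421 (0 hpf) and 161 (3.0 hpf) (slope -0.51, SE 0.12, adjusted p = 0.0123), but without the library at 0 hpf the slope was -0.40 with an adjusted p of 0.0605, and with library totals -0.39 with 0.0508. In Series 2 the rise began between 5.0 hpf (389 normalised reads) and 5.5 hpf (796), when *dhrs3* stood at 440 and *rara* at 247 normalised reads. It went on through 1060 at 6.0 hpf, 2161 and 2048 in the replicates at 6.5 hpf and 5602 at 8.0 hpf to 9317 at 9.5 hpf, 23.4-fold above 5.0 hpf (slope 1.11, SE 0.07, adjusted p = 5.96e-08). In Series 3 *rarg* stood at 129 normalised reads at 6.0 hpf, 215 at 6.5 hpf, 923 at 7.0 hpf and 2035 at 9.0 hpf, 14.7-fold in 3 h (slope 1.42, SE 0.26, adjusted p = 0.00228). It is the member with the steepest slope in that window.

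*rarb* (Xetrov72034636) was barely present. It had at most 9 counts in Series 1, and in Series 3 at most 11 in a polyA+ library and 3 in a depleted one. In Series 2 it had 0 to 15 counts up to 7.5 hpf and 16 to 23 from 8.0 hpf. Its slope of 0.66 after 5.0 hpf (SE 0.11, adjusted p = 0.000174) rests on those few counts, and it passed the filter through the later libraries. The replicates at 4.5 hpf held 0 and 12 counts.

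The retinoid X receptors, the partners of the receptors above, moved in opposite directions after 5.0 hpf of Series 2. *rxrb* (Xetrov72013812) held between 2203 and 3690 normalised reads in Series 1. It held between 3435 and 7688 in Series 2 and between 1694 and 3834 in the polyA+ libraries of Series 3. Its replicates differed by 1.08-fold at 4.5 hpf and 1.09-fold at 6.5 hpf. It rose after 5.0 hpf in Series 2 (slope 0.37, SE 0.05, adjusted p = 9.99e-06), from 3943 to 7688. In Series 3 the slope after 6.0 hpf was 0.21 (SE 0.06, adjusted p = 0.0218), but it did not pass without the library at 6.5, 8.5 or 9.0 hpf (adjusted p 0.0659 to 0.0885) or with library totals (slope 0.06, adjusted p = 0.529).

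*rxra* (Xetrov72013802) was the only member called as falling after the MBT. In Series 1 it held 32.3 normalised reads at 0 hpf, 30.9 at 0.5 hpf, 155 at 1.5 hpf and 355 at 3.0 hpf, 8.64-fold in 3 h (slope 1.02, SE 0.15, adjusted p = 0.000257), and the call held with each library left out. In Series 2 it lay between 328 and 718 normalised reads up to 5.0 hpf, with 718 and 543 in the replicates at 4.5 hpf, then between 218 and 522 up to 7.0 hpf, and at 27.6, 67.8 and 95.9 in the last 3 libraries. The slope after 5.0 hpf was -0.56 (SE 0.15, adjusted p = 0.00458). In Series 3 polyA+ it was nearly undetected, with 0 counts in 3 of 19 libraries and at most 30, at 6.0 hpf, so no polyA+ slope was tested there.

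Before the MBT the members moved in different directions. In Series 1, 2 of 8 tested rose (*rxra* and *rara*) and 2 fell (*cyp26a1* and *rarg*), against 31.9% rising and 29.9% falling of 11551 genes. *rara* held 69.1 normalised reads at 0 hpf and 243 at 3.0 hpf (slope 0.41, SE 0.15, adjusted p = 0.0395). That call was lost without the library at 0, 0.5, 1.0, 2.0 or 2.5 hpf (slopes 0.25 to 0.45, adjusted p 0.0524 to 0.21). The fall of *cyp26a1* (slope -0.63, SE 0.21, adjusted p = 0.0244) was lost without the library at 0.5 hpf (slope -0.43, adjusted p = 0.134), 2.5 hpf (0.0795) or 3.0 hpf (0.167). Without the library at 0.5 hpf *rxrb* also passed as falling (slope -0.19, adjusted p = 0.0385). With library totals the median slope of all genes was 0.23 and the split 44.0% rising and 12.2% falling. On that scale *aldh1a2* (0.36), *rdh10* (0.25) and *dhrs3* (0.38 log2 per hour) passed as rising and *cyp26a1* (-0.37, adjusted p = 0.0823) did not pass.

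In Series 2 from 2.5 to 5.0 hpf, 1 of 8 members tested rose (*rdh10*) and 5 fell, against 26.2% rising and 23% falling of 12397 genes. The fall was steep for *cyp26a1* alone. For *aldh1a2*, *dhrs3*, *rarg* and *rxrb* the slopes were -0.16 to -0.22 with adjusted p of 0.0127 to 0.0342. With library totals these 4 did not pass (slopes -0.08 to -0.14, adjusted p 0.12 to 0.259), 2 members remained called and the split was 31.7% rising and 13.8% falling. Without the library at 2.5 hpf 2 members were called, and without that at 3.0 hpf 3. The calls of *aldh1a2* and *dhrs3* were also lost without the library at 5.0 hpf (adjusted p 0.13 and 0.0641), that of *dhrs3* without 3.5 hpf (0.0601), and those of *aldh1a2* and *rarg* without replicate 15 of 4.5 hpf (0.0761 and 0.0697). *rxra*, at 0.21 log2 per hour (adjusted p = 0.118), passed only without the library at 5.0 hpf (slope 0.34, adjusted p = 0.0124).

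In Series 3 polyA+, 7 members passed the count filter in each window. From 0 to 3.0 hpf 1 fell (*rarg*) and none rose at adjusted p under 0.05 in edgeR, against 17.4% rising and 17% falling of 9947 genes. An unadjusted p under 0.05 was found for 2 of the 7 members and for 4586 of all 9947 genes. *aldh1a2* (slope 0.17, adjusted p = 0.0841) passed without the library at 3.0 hpf (0.26, adjusted p = 0.0471) and *cyp26a1* (slope -0.13, adjusted p = 0.393) without that at 0 hpf (-0.31, adjusted p = 0.0115). With library totals *aldh1a2* (0.29) and *rxrb* (0.27) passed as rising, the median of all genes was 0.11 and the split 25.1% rising and 8.01% falling. From 3.0 to 6.0 hpf 1 fell (*cyp26a1*), against 10.7% rising and 10.3% falling of 9878 genes, and with library totals 14.4% and 4.41%. From 6.0 to 9.0 hpf 5 rose, *cyp26a1*, *rara*, *rarg*, *rdh10* and *rxrb*, and none fell, against 16.8% rising and 13.9% falling of 10302 genes. With library totals the median of all genes in that window was -0.16 and the split 11.3% rising and 27.6% falling.

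At matched stages the females differed in level. At 7.5 hpf of Series 3, which corresponds to 6.0 hpf of Series 2, *rarg* stood at 1404 normalised reads in Series 3 and 1060 in Series 2, *cyp26a1* at 7645 and 2536, and *rdh10* at 4430 and 2773. *rxra* stood at 14.5 in Series 3 and 522 in Series 2. At 9.0 hpf of Series 3, *rara* stood at 649 and *rarg* at 2035, both below the range of 996 to 1558 and 3559 to 4556 in Series 2 at 7.0 and 7.5 hpf. These differences were not tested. Series 1 and 2 shared kit and sequencer, came from different females and overlap at 2.5 and 3.0 hpf. There the Series 1 libraries held 6356 and 5255 normalised reads of *rdh10*, and those of Series 2 1398 and 1606. *aldh1a2* held 3357 and 3558 against 6300 and 6383, and *dhrs3* held 1397 and 992 against 519 and 491. The levels of these 3 enzymes differed there, and the source was not tested. In the same order, *cyp26a1* held 3813 and 2937 against 2650 and 2258, and *rara* 294 and 243 against 168 and 151. *rarg* held 453 and 454 against 537 and 428, *rxra* 228 and 355 against 328 and 445, and *rxrb* 3196 and 3628 against 4327 and 4344.

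The Series 3 RNA was split after extraction, so polyA+ and Ribo-Zero libraries of the same hour can be compared. *cyp26a1* was higher in polyA+ at all 9 hours, by 2.17 to 4.73-fold. *rxra* was lower at all 9 hours, by 8.96 to 65.1-fold (10 normalised reads added in both). Also lower at all 9 hours, by less, were *aldh1a2* (median 1.39-fold), *dhrs3* (2.18-fold) and *rara* (2.44-fold). A lower polyA+ level was common on this scale of library totals. From 0 to 3.0 hpf the median log2 difference of all genes was -1.21, and 54.0% were called lower (edgeR, adjusted p under 0.05). From 5.0 to 8.0 hpf these were -0.60 and 47.0%. Over 0, 1, 2 and 3 hpf *rxra* had 5, 0, 1 and 1 counts in polyA+ against 236, 327, 250 and 212 in Ribo-Zero. Summed, 7 counts stand against 1025, a ratio per count sequenced of 0.00493 (exact 95% interval 0.00198 to 0.0102, counting error only). Over 5 to 8 hpf the sums were 53 and 770 counts, a ratio of 0.0607 (0.045 to 0.0802). *rxra* was therefore present in Series 3 embryos, between 578 and 776 normalised reads in every Ribo-Zero library, although its polyA+ libraries held next to none.

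**Figure D3:**
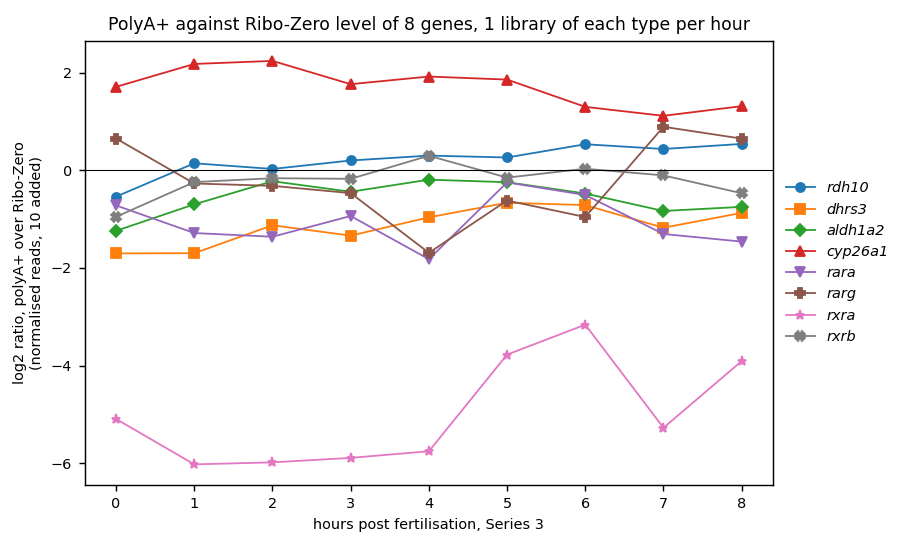
Log2 ratio of polyA+ over Ribo-Zero normalised reads (10 added) at each whole hour of Series 3 for the 8 members with more than a few counts, 1 library of each type per hour. *cyp26a1* lies above 0 and *rxra* far below 0 at all 9 hours. *aldh1a2*, *dhrs3* and *rara* also lie below 0 at all 9 hours, nearer to it. With library totals the median of all genes was below 0 too (-1.21 from 0 to 3.0 hpf, -0.60 from 5.0 to 8.0 hpf, edgeR).

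With the time point as a block, 2 of 8 members tested were higher in polyA+ from 0 to 3.0 hpf and 2 lower, against 31.0% higher and 37.9% lower of 11521 genes. The higher were *cyp26a1* (log2 difference 2.81, SE 0.17, adjusted p = 0.000135) and *rdh10* (0.79, SE 0.17, adjusted p = 0.00856), the lower *rxra* (-6.89, SE 0.72, adjusted p = 0.000551) and *dhrs3* (-0.65, SE 0.19, adjusted p = 0.0262). *rxra* passed the filter through its Ribo-Zero libraries, and its fitted difference depends on the prior count. From 5.0 to 8.0 hpf 3 were higher, *cyp26a1* (1.98, SE 0.16, adjusted p = 2.27e-05), *rdh10* (1.02, SE 0.15, adjusted p = 0.000466) and *rxrb* (0.40, SE 0.12, adjusted p = 0.0184), and *rxra* was lower (-3.69, SE 0.43, adjusted p = 0.000153), against 34.1% higher and 35.3% lower of 11382 genes. These differences are set against the composition of the libraries: the median of all genes was -0.37 in the early window, and -1.21 with library totals, when 18.7% were higher and 54.0% lower. In the late window the median was -0.03, and -0.60 with library totals, when 20.9% were higher and 47.0% lower. On library totals *rdh10* was at -0.04 in the early window and *rxrb* at -0.17 in the late window, so their direction turned, while those of *cyp26a1*, *dhrs3* and *rxra* did not.

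Leaving out single libraries also ended some of these calls. In the early window *rdh10* was lost without the Ribo-Zero library at 1.0 hpf (adjusted p = 0.0595) or 2.0 hpf (0.0611), and *dhrs3* without the polyA+ library at 1.0, 2.0 or 3.0 hpf (0.109 to 0.162) or the Ribo-Zero library at 1.0, 2.0 or 3.0 hpf (0.0558 to 0.0911). Without the polyA+ library at 0 hpf *aldh1a2* (0.41, adjusted p = 0.0467) and *rxrb* (0.67, adjusted p = 0.00619) passed as higher, and without the Ribo-Zero library at 0 hpf *rxrb* did (0.54, adjusted p = 0.0123). These fits use TMM, and in normalised reads *aldh1a2* was lower in polyA+ at all 9 hours. In the late window *rxrb* was lost without polyA+ 6.0 or 7.0 hpf or Ribo-Zero 5.0, 6.0 or 7.0 hpf (adjusted p 0.0641 to 0.155). The call of *cyp26a1* held without any of the 8 libraries in both windows, and that of *rxra* did so in the late window. In the early window *rxra* stayed called without any polyA+ library. Without any of the Ribo-Zero libraries it fell below the count filter there and was not tested.

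The slopes of both library types were then compared, to ask whether polyA+ and total levels changed together. No member passed this test in either window in edgeR. From 0 to 3.0 hpf 1 of 8 members had an unadjusted p under 0.05, *rarg* (-0.47 log2 per hour, SE 0.17, adjusted p = 0.0927), as did 4371 of all 11521 genes. At adjusted p under 0.05, where no member passed, 9.50% of genes had a positive and 8.27% a negative difference. DESeq2 also called none of the 8. With library totals the shares were 15.4% and 4.96%. *rarg* passed without the polyA+ library at 1.0 hpf (-0.55, adjusted p = 0.00663) and *cyp26a1* (-0.09, adjusted p = 0.665) without that at 0 hpf (-0.36, adjusted p = 0.0167). With the time point as a block none of all 11521 genes passed. From 5.0 to 8.0 hpf 2 of 8 members had an unadjusted p under 0.05, *rarg* (0.73, SE 0.29, adjusted p = 0.162) and *rdh10* (0.21, SE 0.09, adjusted p = 0.186), as did 2792 of all 11382 genes. At adjusted p under 0.05 3.83% of genes had a positive and 1.65% a negative difference. DESeq2 called none of the 8 there either, and with library totals the shares were 0.923% and 0.94%.

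Nor did any member pass for its slope in the Ribo-Zero libraries alone. From 0 to 3.0 hpf 0% of 11521 genes rose and 0% fell in edgeR, with 246 genes and none of the members at an unadjusted p under 0.05, and DESeq2 called 1 gene. From 5.0 to 8.0 hpf 1.85% of 11382 genes rose and 0.158% fell. *rarg* held 173, 259, 493 and 1005 normalised reads at 5.0, 6.0, 7.0 and 8.0 hpf, 5.55-fold over the window, with counts of 53, 102, 95 and 155 (slope 0.88, SE 0.20, unadjusted p = 0.00178, adjusted p = 0.0681). It passed with DESeq2 (0.92, adjusted p = 0.000833), with no filter on low counts (adjusted p = 0.0126) and without the polyA+ library at 5.0 hpf (0.0369) or 6.0 hpf (0.0114), which share its fit. *dhrs3* was the other member with an unadjusted p under 0.05, as had 1715 of all 11382 genes.

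A run rule after the study's methods was used to time onsets. It needs at least 3 successive points, each step above a chance step plus 10 normalised reads, and a 10-fold change. The outcome turned on the intercept of the chance step, and the sources conflict on the value behind the study's own onset times. The methods give 0.5. With -0.5, the rows that met the rule were 565 in Series 1 and 821 in Series 2. Together these equal the number of onsets that the paper gives for both series before joining. With 0.5 they were 34 and 333. That match is of totals only, and onset times of single genes were not compared with the study's. With an intercept of 0.5, as in the methods, no member met the rule in any series, against 0.199% of 17122 rows in Series 1, 1.54% of 21572 in Series 2 and 1.83% of 17848 in Series 3. With an intercept of -0.5, 4 members met it. In Series 2 these were *rarg* from 5.0 hpf (23.4-fold), *rara* from 5.5 hpf (26.3-fold), *dhrs3* from 6.0 hpf (16.7-fold) and *cyp26c1* from 6.5 hpf (24.6-fold). *rarg* also met it in Series 3, from 5.5 hpf (30.8-fold). The shares of all rows were then 3.30%, 3.81% and 4.26% in Series 1, 2 and 3. Between the replicate libraries, 99.5% (4.5 hpf) and 99% (6.5 hpf) of gene rows of at least 10 normalised reads had a difference within the chance step at an intercept of 0.5, and 31.1% and 27.5% with -0.5. With a fold of at least 5 and an intercept of 0.5, 1 member met the rule, *dhrs3* from 7.0 hpf.

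The related lists are read against the 35.2% of all genes that rose and the 37.6% that fell in Series 2 after 5.0 hpf, and no difference from these shares was tested. Of 14 retinoic acid responsive genes, 11 were tested in Series 2 after 5.0 hpf, 10 rose, none fell and the median slope was 1.20 log2 per hour, against -0.01 over all genes. From 2.5 to 5.0 hpf only 5 of the 14 passed the filter. Others of the 11 thus passed it through later, higher libraries, so the count and the median follow in part from the filter. Among those that rose were the homeobox genes *hoxb1* (3.04, from 0 to 880 counts) and *hoxd1* (1.56). In Series 3 after 6.0 hpf 4 of 7 tested rose, where 16.8% of all genes rose and 13.9% fell. From 3.0 to 6.0 hpf of Series 3 only 4 of the 14 had passed the filter, so the same limit holds there. *crabp1*, a cytoplasmic retinoic acid binding protein, was the only other CYP26 or binding protein gene of 4 to pass the filter and rose (2.48, from 0 to 911 counts). *lrat*, which stores retinol as esters, rose (2.47, from 0 to 1005 counts), and the other 5 tested genes of retinol import and storage did not pass. *hoxb1*, *crabp1* and *lrat* passed the filter through their later libraries. Of the 3 other retinaldehyde dehydrogenases none passed the filter.

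Most of the other nuclear receptors tested fell. Of 15 other receptors and partners of the retinoid X receptors, 11 were tested in the same window, 1 rose and 10 fell, with a median of -0.65 log2 per hour. *nr4a2* (-0.95), *nr4a1* (-0.92) and the thyroid hormone receptor gene *thrb* (-0.74, at most 30 counts) fell, and *ppard*, a fatty acid sensor, rose (0.91, at most 65 counts). With library totals 45.7% of all genes fell. Of 13 coregulators, 4 rose and 7 fell, against 35.2% rising and 37.6% falling of all genes, a difference that was not tested. *nrip1* (-0.81) and *tbl1x* (-0.79) fell and the coactivator gene *ncoa1* (0.93) rose. Of the other retinol and retinal oxidoreductases, 1 of 5 tested rose, *dhrs9* (1.22), and 3 fell, *rdh13* (-1.22), *rdh5* (-0.57) and *dhrs4* (-0.14). In Series 3 after 6.0 hpf 16.8% of all genes rose and 13.9% fell. There 1 of 7 other receptors tested fell and none rose, with a median of -0.15 log2 per hour. Of 11 coregulators tested 1 rose and none fell, and of 4 oxidoreductases 1 fell and none rose.

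**Figure D4:**
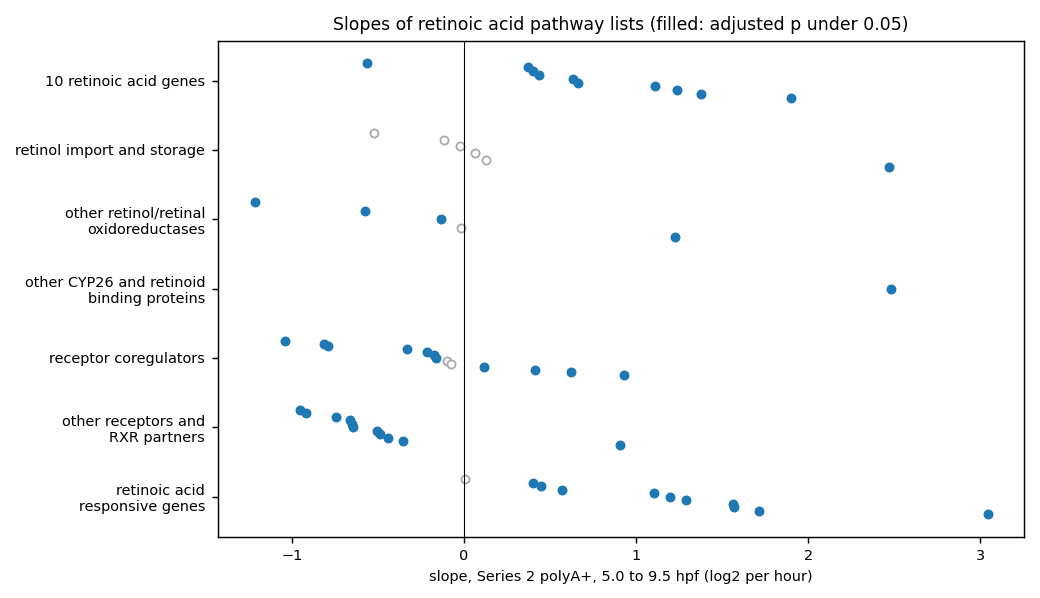
Slopes in Series 2 polyA+ from 5.0 to 9.5 hpf, in log2 per hour, for the 10 genes and 6 lists of related genes without them (each point is 1 gene, filled where adjusted p is under 0.05). Retinoic acid responsive genes lie at or right of 0, and 10 of 11 other receptors lie left of it.

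In shape over the 15 time points of Series 2, the 7 members that spanned at least 2 log2 units each had close companions among 9690 named rows that reached 100 normalised reads. *rarg* was closest to *st6galnac2* (Pearson r = 0.998), *upk3b* (0.997) and *admp2* (0.997), with r of 0.926, 0.887 and 0.851 over the 19 points of Series 3. *rara* was closest to *c8g* (0.999), *ly6g6c* (0.996) and *ugt3a2* (0.996), with 0.735, 0.749 and 0.753 in Series 3. *cyp26a1* was closest to *marcks* (0.989), *srsf3* (0.979) and *azin1* (0.979), with 0.509, 0.192 and 0.658 in Series 3, and *rdh10* to *tcf7l1* (0.991), *slc25a17* (0.987) and *znf668* (0.982), with 0.77, 0.83 and 0.649.

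For *dhrs3* the correlations with its companions were low in Series 3. *dhrs3* was closest to *dynlt3* (0.997), *dlx3* (0.997) and *slc3a1* (0.997), with -0.218, 0.234 and 0.108 in Series 3, where its slope did not pass. There *dlx3* reached at most 19.3 normalised reads and *dynlt3* fewer, near what a count of 0 allows. Their r thus cannot show whether the likeness extended to Series 3. *slc3a1* reached 135. Among the 3 closest with 1 normalised read added, *gpd1l* had 0.784 and *vtcn1* 0.234 in Series 3, and *mmp3* had no value. Among the genes closest to *cyp26c1* were *slc25a30* (0.997) and *dpysl4* (0.997), with 0.814 and 0.787 in Series 3. There *cyp26c1* itself had more than 3 counts in only 3 of 19 polyA+ libraries, so these r rest on few points. Closest to *rxra* were *eea1* (0.984), *tanc2* (0.98) and *tbc1d30* (0.975), with 0.556, 0.376 and 0.426 in Series 3. *rxra* had at most 30 counts in a polyA+ library there, so the same limit holds. These correlations are descriptions across time points, and genes correlated here share libraries. With 1 normalised read added in place of 10, all 3 companions stayed the same for *cyp26a1* and *rxra*, 2 for *rdh10*, 1 for *rara* and *rarg*, and none for *dhrs3* and *cyp26c1*.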

How the data were processed

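For the deposited counts, the authors aligned read pairs to *X. tropicalis* transcripts with Bowtie 0.12.7 and left out any read shared between genes. The deposited normalised signal equals the count divided by the library total without ribosomal rows, times 25000000 (largest difference 4.7e-06% over values of 10 or more), and it was recomputed from the counts. All 52 libraries were used and 0 columns were unmapped.

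Slopes and levels were tested on raw counts in edgeR 4.0.16 (quasi-likelihood, TMM, R 4.3.3; at least 10 counts in at least 4 libraries of a window; Benjamini-Hochberg over all genes; adjusted p under 0.05), after tests on simulated data. DESeq2 1.42.0, DESeq2 size factors, library totals, no filter and each library left out were alternatives. PolyA+ and Ribo-Zero libraries of an hour share their RNA, hence the block in level tests. Their deviations from the window mean correlated at 0.0383 to 0.0647 (0 to 3.0 hpf) and 0.591 to 0.747 (5.0 to 8.0 hpf). Between different hours the correlations were -0.116 to 0.0632 and -0.703 to 0.582, so the ranges meet or nearly meet. Folds have 10 normalised reads added. Rows for ribosomal and mitochondrial RNA and added sequences are not genes.

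From each related list at most 4 genes with the steepest called slope in Series 2 from 5.0 to 9.5 hpf are named, and 3 similar genes per member; a few genes that this rule names are not reported here. Members and lists were chosen with earlier results of these data known. Sequences are not used here, and gene coordinates only to name the neighbour of *cyp26a1*. The run rule was rebuilt from the study's methods, per series, without joining Series 1 and 2 and without its repeated end-of-series search. The tissue markers were *zar1*, *dazl*, *gdf1* and *vegt* (egg; summed 13713 to 41097 normalised reads in Series 2), *t*, *msgn1* and *myf5* (mesoderm, up to 19535), *sox17a*, *sox17b.1* and *mixer* (endoderm, up to 20551), *sox2* and *grhl3*, and *alb*, *ckm*, *tnnt3*, *hba1* and *hbd* (tissues of the mother). The egg sum was highest at 7.5 hpf in Series 2. In Series 3 polyA+ it went from 6340 at 0 hpf to 49642 at 9.0 hpf, so it is not used as a measure of maternal RNA.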

Additional observations from a re-analysis of the deposited data

How the results depend on the processing

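Of 459 alternative settings for single genes with no library left out, 425 kept the side of the threshold (or moved less than the replicate spread). Direction was compared only where the main or the alternative fit made a call, so an uncalled slope that changed sign counts among the 425. With library totals the members called were 2 in place of 6 in Series 2 from 2.5 to 5.0 hpf, 2 in place of 1 in Series 3 from 0 to 3.0 hpf and 0 in place of 1 from 3.0 to 6.0 hpf. That scaling turned the level differences of *aldh1a2* (-0.65) and *rdh10* (-0.042) from 0 to 3.0 hpf and of *rxrb* (-0.17) from 5.0 to 8.0 hpf. For the Ribo-Zero slope from 5.0 to 8.0 hpf, no filter and DESeq2 each called 1 in place of 0. The run rule gave 0 members with an intercept of 0.5, 4 with -0.5 and 1 with a fold of 5. The methods give 0.5, while the paper's number of onsets before joining was matched with -0.5. Leaving out each library gave 2 to 4 in Series 1, 2 to 6 and 10 to 10 in both windows of Series 2, 1 to 2, 0 to 1 and 4 to 6 in Series 3 polyA+, 0 to 1 for the early slope difference, 1 to 6 and 3 to 4 for the level differences and 0 to 1 for the late Ribo-Zero slope. The replicate block of time points left the members called for the slope difference at 0 in both windows; over all genes it moved the calls from 2047 to 0 and from 624 to 986, where library totals gave 212 and DESeq2 1231. For the late Ribo-Zero slope 228 genes passed, 496 with no filter and 595 with DESeq2. Without the block the level calls of members from 0 to 3.0 hpf were 5 in place of 4, as *rxrb* passed (0.47, adjusted p = 0.0268). The causes were not tested. Few counts limit what can be said of *cyp26c1* and *rarb*.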
